A study of Saccharomyces cerevisiae with 24 samples.

Results

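The arrays described here compared yeast that carries the dot4-5 allele (strain UCC6407, dot4-5-6Myc) with yeast that carries DOT4-6Myc (UCC6408), and both proteins bear the same 6Myc tag. They were chosen by their labels, which name dot4-5 and the wild type on 1 array, and they number 6 of the 24 arrays of the series. The 6 arrays form 3 numbered sets, and within a set the dyes of the 2 RNAs were exchanged. In the same series, dot4-1 (UCC6406, dot4-1-6Myc), a dot4 null strain (UCC6435) and a strain with untagged DOT4 (UCC6432) were each set against the same UCC6408 on 6 arrays. All cultures were grown in YEPD, a rich glucose medium, and total RNA was labelled. The sources used here do not say what dot4-5 changes in the protein, which markers the strains carry, what array was used or whether each set is a culture of its own. The tests thus rest on how far the sets differ, and that may be technical variation.

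DOT4 is the gene listed as UBP10 (YNL186W), a ubiquitin protease that removes ubiquitin from histone H2B. It was named as a disruptor of telomeric silencing, the repression of genes that lie beside the chromosome ends. Yeast chromosome ends carry repeated elements, among them the Y' element, which encodes a helicase and occurs in near-identical copies at many ends. Silencing there depends on the SIR proteins, which bind nucleosomes whose histones lack certain modifications.

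Values are log2 ratios of a strain over DOT4-6Myc, centred on the median of each array and averaged over the 2 dye orders of a set. The direction is the likely one: all arrays were turned so that UBP10 is lower in the strain labelled null. With the label order kept instead, UBP10 would be higher on 6 of 6 null arrays and every sign given here would be exchanged. The deposited values are ratios without intensities, so signal over background cannot be judged, and DOT4-6Myc is a common reference whose own spread is not in the tests. A ratio of whole cultures also cannot tell fewer expressing cells from less RNA per cell.

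The transcript of the gene itself was measured first. UBP10 was at -0.21, -0.25 and -0.26 in the 3 sets of dot4-5, a mean of -0.24 ± 0.025 (SD, n = 3), and all 6 arrays lay between -0.32 and -0.18. The value did not pass the test (limma, adjusted p = 0.817), with a 95% interval of -0.44 to -0.04, and it passed when arrays were scaled to a common spread or when dot4-5 was fitted alone. In the null strain UBP10 was at -4.48, -4.48 and -5.11. These are the values that set the direction of all arrays, so no test against them is given. In dot4-1 it was at -0.57, -0.60 and -0.68, and dot4-5 was 0.38 higher (adjusted p = 0.0257).

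Against DOT4-6Myc, few transcripts passed the test in dot4-5, and most of those that did were higher and lay at chromosome ends. Of 6195 genes tested, 64 were called at an adjusted p under 0.05, which is 1.03%. Of these, 57 were higher (0.92% of all genes tested) and 7 were lower (0.113%). At an unadjusted p under 0.05, 269 genes passed. The changes were small: the rises ran from 0.23 to 1.69 with a median of 0.65, and the falls from -0.45 to -0.18. Only ADH4 and URA3 differed by 2-fold or more in dot4-5, against 96 genes in dot4-1, 57 in the null strain and 11 in untagged DOT4. The SD of the strain means over all genes was 0.0878 in dot4-5, 0.377 in dot4-1, 0.319 in the null strain and 0.165 in untagged DOT4. When arrays were scaled to a common spread, 353 genes were called in dot4-5, 187 higher and 166 lower, so the split between rises and falls depends on that choice. All 57 rises and all 7 falls were also called in that setting. The concentration at the ends depends on it too: with scaled arrays, 100 of the 187 rises and 14 of the 166 falls were among the 10 outermost genes of an end. With dot4-5 fitted alone, 140 genes were called, and 68 of the 90 rises and 6 of the 50 falls lay there.

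**Figure D1:**
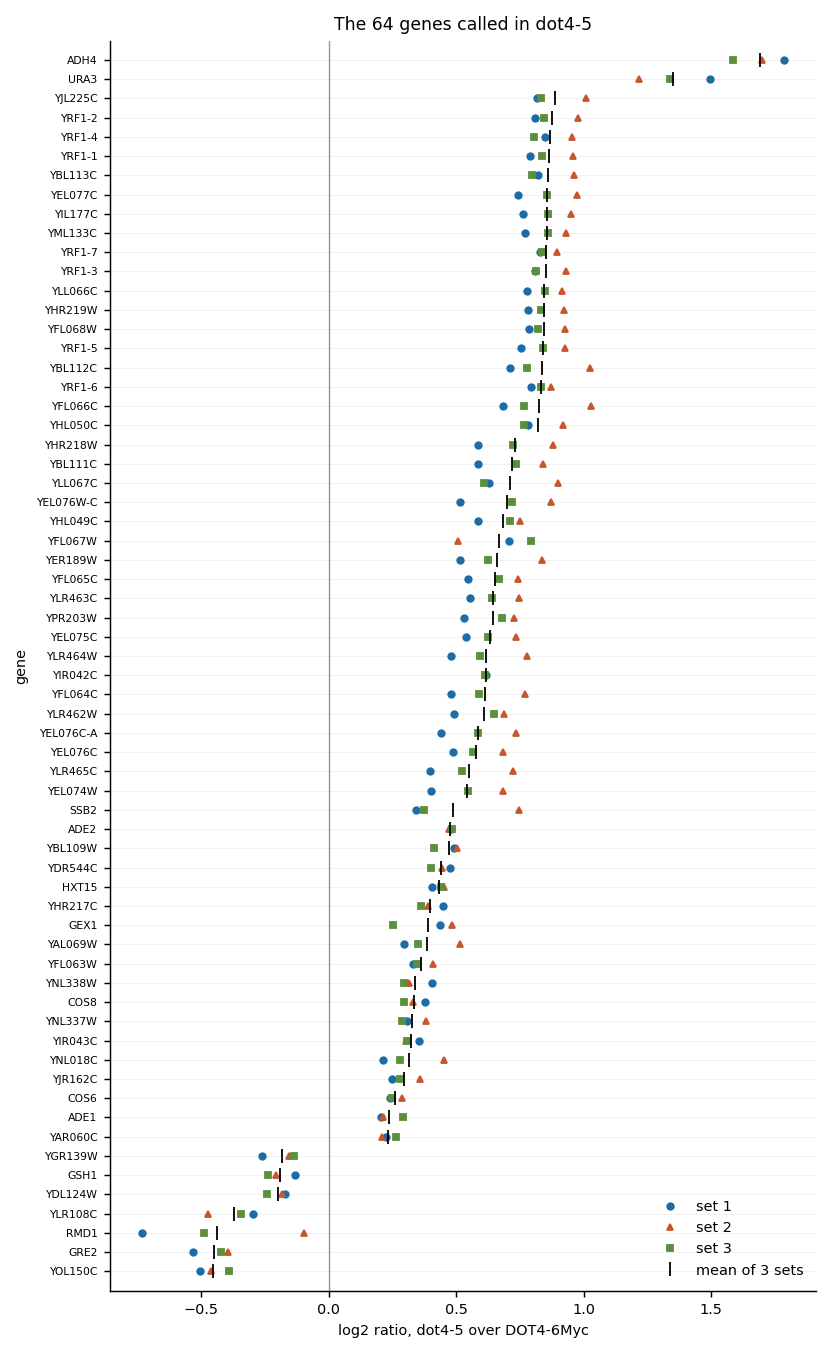
Each row is 1 of the 64 genes called in dot4-5, and the x axis gives the log2 ratio of dot4-5 over DOT4-6Myc. Symbols stand for the 3 sets and the bar for their mean. All 57 rises are above 0 in all 3 sets, and ADH4 and URA3 lie apart from the other rises.

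The called genes mostly kept their sign between sets and arrays. All 57 rises had 1 sign on all 6 arrays, and 6 of the 7 falls did, RMD1 being the exception. The genes were called on the means of these same arrays, so the shared sign follows in part from that selection. Set 2 was the highest of the sets for 45 of the 57 rises and set 1 the lowest for 39. The median rise was 0.54 in set 1, 0.75 in set 2 and 0.64 in set 3. Leaving out each dot4-5 set in turn left 43, 45 and 44 of the rises called, and 42 were called in every such fit. Of the falls, YLR108C alone was called in every such fit.

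The rises were concentrated at chromosome ends. The 10 outermost genes of the 32 ends of the 16 nuclear chromosomes gave 358 tested genes, of which 52 rose and 0 fell. The remaining 5837 genes held 5 rises (URA3, SSB2, ADE2, YNL018C and ADE1) and all 7 falls. Of the 52, 38 were placed by the RefSeq annotation and 14 by the order of their systematic names. The share of risen genes fell with rank from the end among annotated genes. At rank 1, 16 of 27 rose and the median of all 27 was 0.71. At rank 2, 9 of 28 rose with a median of 0.11, and at rank 3, 6 of 29 with a median of 0.087. At ranks 4 to 5 it was 6 of 59, at ranks 6 to 10 it was 1 of 151, and at ranks 21 to 50 it was 0 of 910. In the null strain the medians at ranks 1, 2 and 3 were 0.85, 0.32 and 0.24, and in untagged DOT4 they were 0.058, -0.031 and -0.015. The medians are of ratios against the same DOT4-6Myc reference. Many of the risen genes are open reading frames of Y' ends, whose copies may share signal. The counts by gene and by rank thus do not stand for separate observations.

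**Figure D2:**
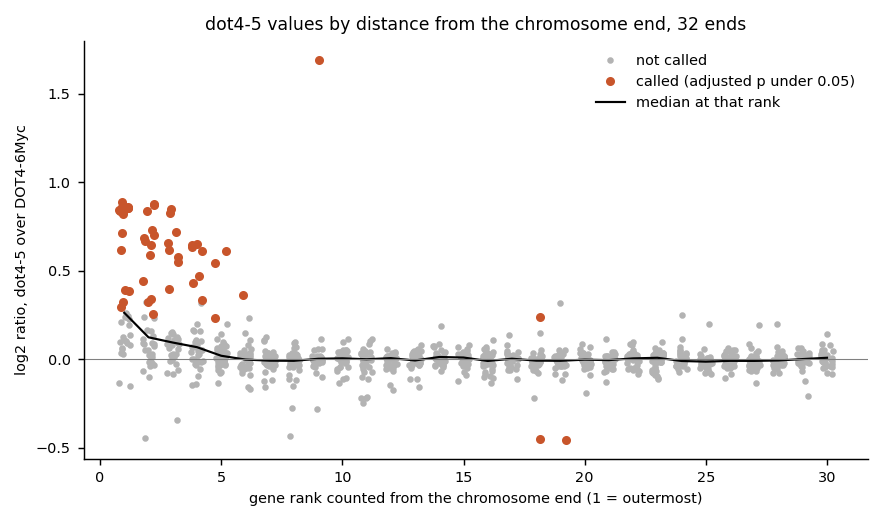
The x axis is the rank of a gene from its chromosome end (points are spread sideways within a rank so that they can be seen), and the y axis the log2 ratio of dot4-5 over DOT4-6Myc. Coloured points were called and the line joins the medians at each rank. The rises lie mostly at ranks 1 to 5, ADH4 stands at rank 9, and the median is near 0 from rank 6 on.

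The ends did not take part alike. At least 1 gene rose at 23 of the 32 ends. Where the risen genes are Y' copies, signal shared between ends may add to this count. The left ends of chromosomes V and VI and the right end of XII each held 6 rises, and the left end of II held 4. At the left end of VI the 6 ran from YFL068W at rank 1 to YFL063W at rank 6, at 0.84 and 0.36. No gene rose at the right ends of II, III, VI, XI, XIII, XIV and XV or the left ends of XI and XV. Medians over the outermost genes of an end ran from -0.043 at the left end of IV to 0.36 at the left end of VI.

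The Y' helicase genes gave the most uniform rise. All 7 measured YRF1 genes of the 8 in the family rose, to between 0.83 and 0.88. YRF1-2, the highest, was at 0.81, 0.98 and 0.85 in the 3 sets, a mean of 0.88 ± 0.088 (SD, n = 3) or 1.84-fold (adjusted p = 7.72e-07). YRF1-6, the lowest, was at 0.80, 0.87 and 0.83, or 1.78-fold. No set of either gene came near 0. The family's median was 0.85 in dot4-5, against -0.0028 over all genes tested. It was 0.82 in dot4-1, 1.00 in the null strain and 0.076 in untagged DOT4. The copies are near-identical and the probe sequences were not used here, so the 7 values may share signal and do not count as 7 separate observations.

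The YRF1 values in dot4-5 were not told apart from those of dot4-1 or of the strain without the gene. The difference from dot4-1 ran from -0.011 to 0.054 over the 7 genes, with 95% intervals that all lay within -0.18 and 0.24. The difference from the null strain ran from -0.18 to -0.076, with intervals within -0.38 and 0.096. None of the 14 differences passed the test, which does not show that the strains are alike. Against untagged DOT4 all 7 were higher in dot4-5, by 0.73 to 0.81. For all genes tested, 61% differed between dot4-5 and dot4-1 (31.4% higher and 29.6% lower in dot4-5). Between dot4-5 and the null strain 47.5% differed (24.2% higher, 23.3% lower), and between dot4-5 and untagged DOT4 13.1% did (8.23% higher, 4.87% lower). Without centring, the last split was 717 higher and 92 lower in place of 510 and 302.

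Other open reading frames at Y' ends rose with the helicases. At rank 1, YJL225C was at 0.82, 1.01 and 0.83, a mean of 0.89 ± 0.11 (SD, n = 3), and YHL050C at 0.78, 0.92 and 0.77. The 16 annotated genes of rank 1 that rose had a median of 0.85, and 15 of them were highest in set 2. Those of them that are Y' copies may share signal. YEL075C, at rank 4, was at 0.54, 0.74 and 0.62 and passed with an adjusted p of 0.0334, and it lost the call without any 1 of the sets. YHL049C had 1 array at 0.45, against 0.70 to 0.75 on the other arrays. YPR203W had 1 at 0.32, against 0.64 to 0.81. Both genes remain above 0 on all 6 arrays.

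The rises were also compared with dot4-1. Of the 57, 10 were higher in dot4-5 than in dot4-1, 12 were lower and 35 were not called, and the 10 are a smaller share than the 31.4% of all genes tested. The 10 are YLR465C, YFL066C, YHR218W, YBL111C, YBL112C, YEL076C-A, YLR464W, YLR462W, GEX1 and ADE1. YLR465C, at the right end of XII, was at 0.40, 0.72 and 0.52 in dot4-5 and at 0.31, 0.03 and 0.13 in dot4-1, and the difference was 0.39 (adjusted p = 0.00932). YFL066C averaged 0.83 in dot4-5 and 0.47 in dot4-1, a difference of 0.35 (adjusted p = 0.0108).

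Some of the rises have no gene name. Of the 57, 13 have no entry in the RefSeq table and keep their systematic names. They had a median of 0.40 in dot4-5, 0.61 in dot4-1 and 0.71 in the null strain. Of the 13, 9 were lower in dot4-5 than in dot4-1, 1 was higher and 3 were not called. Against the null strain 8 were lower and 5 were not called. Of all genes tested, 29.6% were lower than in dot4-1 and 23.3% lower than in the null strain. YBL109W, at the left end of II, was at 0.49, 0.50 and 0.41 in dot4-5, and at 1.03, 0.75 and 0.98 in the null strain. Its difference was -0.45 (adjusted p = 0.000664), and the sets of the 2 strains did not overlap. YDR544C, next to YRF1-1 at the right end of IV, averaged 0.44 in dot4-5 and 0.82 in the null strain (adjusted p = 0.000544 for the difference). Over all 57 rises, 3 were higher than in the null strain (URA3, GEX1 and ADE1), 10 were lower and 44 were not called. Against untagged DOT4, 54 were higher, 0 lower and 3 not called (ADH4, URA3 and YAR060C), while 8.23% of all genes tested were higher. The 57 were called on the same dot4-5 ratios, and their median in untagged DOT4 was 0.016. The count thus follows in part from how the genes were picked.

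**Figure D3:**
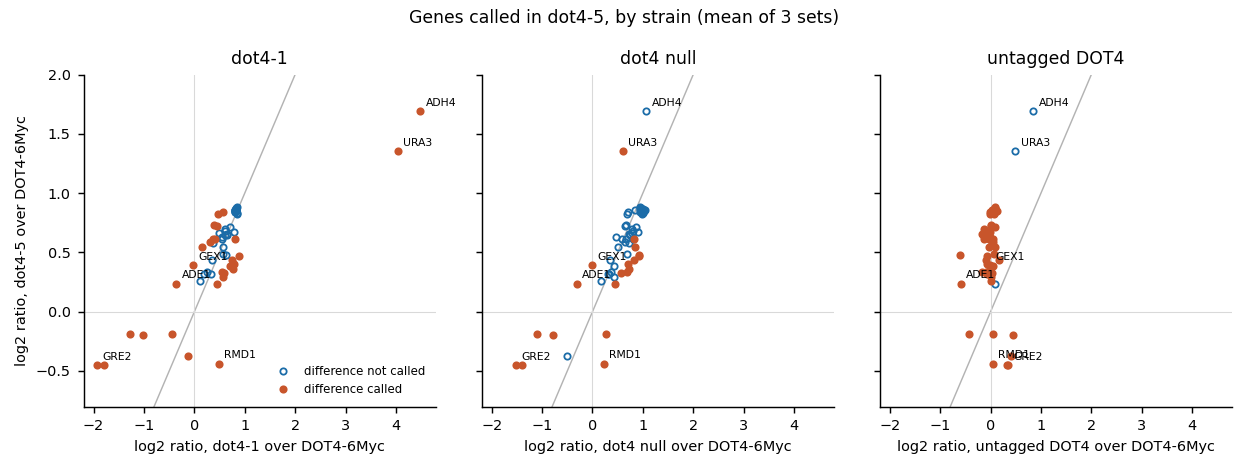
The y axis of each panel gives the mean log2 ratio of dot4-5 over DOT4-6Myc for the 64 called genes, and the x axis that of dot4-1, the null strain or untagged DOT4 over the same reference. The line marks equal values, and filled points are genes whose difference between the strains was called. ADH4 and URA3 stand far to the right in the dot4-1 panel, at 4.48 and 4.04, and most rises lie near an x value of 0 in the untagged panel.

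ADH4 and URA3 had the largest rises. ADH4, an alcohol dehydrogenase gene at rank 9 of the left end of chromosome VII, was at 1.79, 1.70 and 1.59 in dot4-5, a mean of 1.69 ± 0.10 (SD, n = 3) or 3.23-fold (adjusted p = 0.000415). URA3, which encodes the orotidine phosphate decarboxylase of uracil synthesis, was at 1.50, 1.22 and 1.34, a mean of 1.35 ± 0.14 (SD, n = 3) or 2.55-fold (adjusted p = 0.00264). URA3 lies at rank 57 of the left end of V in the annotation. URA3 inserted at ADH4, beside a new telomere, is a widely used reporter of telomeric silencing, and the labels do not say whether these strains carry it.

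The annotated genes on either side of ADH4 were not called. ZRT1, the zinc transporter gene inward of ADH4, was at -0.05 (adjusted p = 1.00), and YPS5, a protease gene outward of it, at 0.20 (adjusted p = 0.298). In dot4-1 ADH4 was at 4.47, 4.48 and 4.50, and the difference of dot4-5 from that was -2.79 (adjusted p = 1.2e-05). URA3 was at 3.83, 3.98 and 4.31 in dot4-1, a difference of -2.69 (adjusted p = 1.32e-05). The null strain lay below dot4-5, with ADH4 at 1.39, 0.81 and 1.00 and URA3 at 0.72, 0.35 and 0.73. The difference from the null strain was 0.63 for ADH4 (adjusted p = 0.0911) and 0.75 for URA3 (adjusted p = 0.0439). Untagged DOT4 varied most between its sets, with ADH4 at -0.03, 1.04 and 1.52 and URA3 at -0.37, 0.78 and 1.06. The differences from it were 0.85 and 0.86 and did not pass (adjusted p = 0.074 and 0.0662). Because the fit pools the spread of all 4 strains, the standard error of ADH4 in dot4-5 was 0.20 although its sets lay close together.

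Away from the Y' genes, a few genes of other families near the ends rose. HXT15, a member of the hexose transporter family at rank 4 of the left end of IV, was at 0.41, 0.45 and 0.44, a mean of 0.43 ± 0.024 (SD, n = 3, adjusted p = 1.73e-05). HXT16, a close copy, was at -0.0025, 0.42 and 0.18 and did not pass (adjusted p = 0.637), so its sets spread far more. GEX1, a glutathione exchanger gene at rank 1 of the left end of III, was at 0.44, 0.48 and 0.25 (mean 0.39, adjusted p = 0.00706). Its lowest array read 0.016 and the other 5 read 0.38 to 0.56, and the call was lost without set 1 or set 2. GEX1 was at -0.03 in dot4-1, -0.01 in the null strain and -0.01 in untagged DOT4. It was higher in dot4-5 than in each, by 0.42, 0.40 and 0.40 (adjusted p = 0.00184, 0.00345 and 0.0133). GEX2, its near copy at the right end of XI, was at 0.08 in dot4-5 (adjusted p = 1.00). YIR042C, an uncharacterised gene at rank 1 of the right end of IX, was at 0.62, 0.61 and 0.61 and rose (adjusted p = 2.1e-05).

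The COS genes, a subtelomeric family whose proteins act in sorting membrane proteins at endosomes, lay mostly above 0 by a small amount. Of 11 tested, COS8 and COS6 rose, at 0.33 and 0.26, and 9 did not pass. The median was 0.23, and 8 of the 11 were above 0 in all 3 sets, against 16.7% of all genes tested. It was 0.087 in dot4-1, 0.19 in the null strain and -0.023 in untagged DOT4. COS8 was at 0.38, 0.33 and 0.29 and COS6 at 0.24, 0.29 and 0.25, so no set of either reached 0. With dot4-5 fitted alone, or with arrays scaled, 8 of the 11 were called higher, while no COS gene was called without any 1 of the 3 sets. The copies are alike in sequence and may share signal.

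The PAU genes, a family of cell wall mannoprotein genes that also lies near the ends, were not called in dot4-5. There, 0 of 23 passed the test, and the median was 0.087. In dot4-1 and the null strain the medians were 0.56 and 0.69. Of the 23, 19 were lower in dot4-5 than in each of these strains, against 29.6% and 23.3% of all genes tested. PAU3, at the right end of III, was at 0.06 in dot4-5 and 0.90 in the null strain. In untagged DOT4 the median was -0.31, and 18 of 23 were higher in dot4-5, against 8.23% of all genes tested. When arrays were scaled, 12 PAU genes were called higher in dot4-5. Of 51 other metabolic genes chosen because they lie in subtelomeric regions, ADH4, HXT15 and GEX1 rose and the median was 0.004.

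Outside the chromosome ends, 2 purine synthesis genes rose, and the median of the pathway was above 0 in dot4-5 and below 0 in the other strains. ADE2, the carboxylase of the pathway, was at 0.48, 0.47 and 0.48 in dot4-5, a mean of 0.48 ± 0.0051 (SD, n = 3, adjusted p = 0.00386). ADE1, which acts at the next step, was at 0.20, 0.21 and 0.29 (mean 0.24, adjusted p = 0.00285). These were the 2 of 13 tested genes that rose, and the calls of ADE2 without set 1 or set 3 and of ADE1 without set 3 were lost. All 13 had means above 0, and 12 were above 0 in all 3 sets, against 16.7% of all genes tested. The median was 0.19 in dot4-5, -0.46 in dot4-1, -0.31 in the null strain and -0.42 in untagged DOT4.

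The tests of the differences between strains passed for most of the pathway. In dot4-5, 12 of the 13 were higher than in dot4-1, 12 were higher and 1 (ADE2) lower than in the null strain, and 11 were higher than in untagged DOT4. Of all genes tested, 31.4%, 24.2% and 8.23% were higher than in these strains in turn, and 23.3% were lower than in the null strain. ADE17, which carries out the last steps to IMP, was at 0.26, 0.45 and 0.51 in dot4-5 and did not pass against DOT4-6Myc (adjusted p = 0.264). It was at -1.19 in dot4-1, -1.13 in the null strain and -0.67 in untagged DOT4, and dot4-5 was higher than each by 1.59, 1.53 and 1.08. ADE1 was at -0.36, -0.31 and -0.59 in these strains. ADE2 went apart from the pathway: it was at 0.62 in dot4-1, 0.93 in the null strain and -0.61 in untagged DOT4. With dot4-5 fitted alone 7 of the 13 were called higher, and with scaled arrays 11. Of the 6195 genes tested, 90 and 187 were called higher in these settings. The dye orders differed. With only the arrays that name dot4-5 first, the median was 0.086 and 1 of the 13 was called higher, against 119 of all genes tested. ADE1 was at 0.13 on these arrays and lost its call. With only the arrays that name DOT4-6Myc first, the median was 0.27 and 9 were called higher, against 377 of all genes tested. ADE2, too, is in wide use as a telomeric reporter and marker.

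The other markers did not rise with URA3 and ADE2. HIS3, of histidine synthesis, was at -0.17, -0.03 and -0.10 in dot4-5, and LEU2 and TRP1, of leucine and tryptophan synthesis, averaged -0.04 and 0.00. None passed the test. In dot4-1, HIS3 was at -2.83, LEU2 at -0.94 and TRP1 at -0.96. In dot4-5 the remaining 8 genes of the pyrimidine synthesis list beside URA3 were not called, and the list's median was -0.023.

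Of the remaining rises, SSB2 and YNL018C lie inside chromosomes. SSB2, a ribosome-associated Hsp70 chaperone, was at 0.34, 0.75 and 0.37, a mean of 0.49 ± 0.23 (SD, n = 3, adjusted p = 0.00253), with set 2 well above the other sets. SSB1, its near copy, was at -0.02, a mean of dye orders with opposite signs. SSB1 was between -0.63 and -0.59 on the arrays that name dot4-5 first and between 0.47 and 0.69 on the others. SSB2 was at 0.57 in dot4-1 and 0.68 in the null strain, and neither difference from dot4-5 passed. YNL018C, an uncharacterised gene, was at 0.32 (adjusted p = 0.0227), and its close copy YNL033W at -0.03. YNL018C lost the call without any 1 of the sets.

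The falls were few and included 2 reductase genes, GRE2 and YDL124W. GRE2, a methylglyoxal reductase gene, was at -0.53, -0.40 and -0.42, a mean of -0.45 ± 0.073 (SD, n = 3, adjusted p = 0.00748). YOL150C, the neighbouring open reading frame, had -0.51, -0.46 and -0.39. Both may share signal, because the table does not say which strand a probe reads. YLR108C, an uncharacterised gene, was at -0.30, -0.48 and -0.34 (adjusted p = 0.000728). YDL124W, a reductase gene, and GSH1, which encodes the first enzyme of glutathione synthesis, averaged -0.20 and -0.19 (adjusted p = 0.0145 and 0.0471). No set of these 5 genes reached 0.

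GRE2 was far lower in the other mutants. It was at -1.93 in dot4-1, -1.51 in the null strain and 0.35 in untagged DOT4, and dot4-5 was higher than the first 2 by 1.48 and 1.06 and lower than the third (a difference of -0.80). GSH1 was at -1.27 in dot4-1 and -1.10 in the null strain, and dot4-5 was higher by 1.08 and 0.91. YLR108C was at -0.37 in dot4-5 and lower there than in dot4-1, where it was at -0.12 (a difference of -0.25, adjusted p = 0.007). In the null strain it was at -0.50, and that difference did not pass (adjusted p = 0.144).

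The falls also include 4 members of the list of stress reductase and glutathione genes, among them the uncharacterised YLR108C. Of 35 tested, GRE2, YLR108C, YDL124W and GSH1 fell and 0 rose, while 0.113% of all genes tested fell. The list was chosen with earlier results of these data known, so its counts are not independent support for a shared change. The list's median was -0.046, and 19 of the 35 were below 0 in all 3 sets, against 17.7% of all genes tested. GTT2, a glutathione transferase gene, was at -0.43, -0.52 and -0.35, and YNL134C, an oxidoreductase gene, at -0.39, -0.49 and -0.42. Neither passed (adjusted p = 0.226 and 0.493). Both passed as lower with scaled arrays and with dot4-5 fitted alone (adjusted p = 0.00034 and 0.000105 in the latter fit). Both also passed with separate arrays and a dye term and with the set number as a replicate block. Without centring, or with a dot4-5 set left out, neither passed, so their calls depend on the setting. The medians of the list were -0.69 in dot4-1, -0.50 in the null strain and 0.085 in untagged DOT4. The 5 tested AAD genes, which encode putative aryl-alcohol dehydrogenases, had values of -0.24 to -0.10 in dot4-5, and none passed. All 5 were below 0 in all 3 sets, and all 5 passed as lower when arrays were scaled.

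RMD1 and YGR139W were the other falls and went against the null strain. RMD1, a gene required for meiotic nuclear division, was at -0.73, -0.10 and -0.49, and 2 of its 6 arrays were above 0. It passed with an adjusted p of 0.0263, although its SD over the sets was 0.32, and it did not pass with dot4-5 fitted alone. It was at 0.49 in dot4-1 and 0.23 in the null strain, and the differences of dot4-5 from them were -0.93 and -0.67. YGR139W was at -0.26, -0.16 and -0.14 in dot4-5, 0.28 in the null strain and -0.45 in dot4-1. In untagged DOT4 it was at -0.42, and dot4-5 was higher by 0.24 (adjusted p = 0.0148). YGR139W lost its call without centring, with only the arrays that name DOT4-6Myc first, and without any 1 of the sets. It also lost the call with separate arrays and a dye term and with the set number as a replicate block. It neighbours TPO2, a polyamine transporter gene, which was at -0.20 in dot4-5 and was not called.

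Several gene groups with medians far from 0 in the other mutants had medians close to 0 in dot4-5. Of 70 ribosome biogenesis genes, 0 were called in dot4-5 and the median was -0.00. In dot4-1 and the null strain their medians were 0.51 and 0.52. In dot4-5, 65 and 64 of the 70 were lower than in these strains, against 29.6% and 23.3% of all genes tested. In untagged DOT4 the median was -0.31, and 34 were higher in dot4-5, against 8.23% of all genes tested. Of 18 genes of trehalose and glycogen metabolism, 0 were called, as for nearly all genes. Of the 18, 16 were higher in dot4-5 than in dot4-1 and 13 higher than in the null strain, against 31.4% and 24.2% of all genes tested. The 15 RNA polymerase I factors gave a median of 0.016. Of these, 11 were lower in dot4-5 than in each of dot4-1 and the null strain. Of all genes tested, 29.6% and 23.3% were lower. Of 30 chaperone genes, SSB2 rose and 0 fell. Their median was -0.075, and 14 were below 0 in all 3 sets, against 17.7% of all genes tested. HSP42, a small heat shock protein gene, was at -0.10, -0.31 and -0.28 and did not pass (adjusted p = 0.387). Of 6 flocculin genes, 8 DAN and TIR cell wall genes and 15 zinc homeostasis genes, 0 were called, with medians of -0.03, -0.042 and -0.0073.

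**Figure D4:**
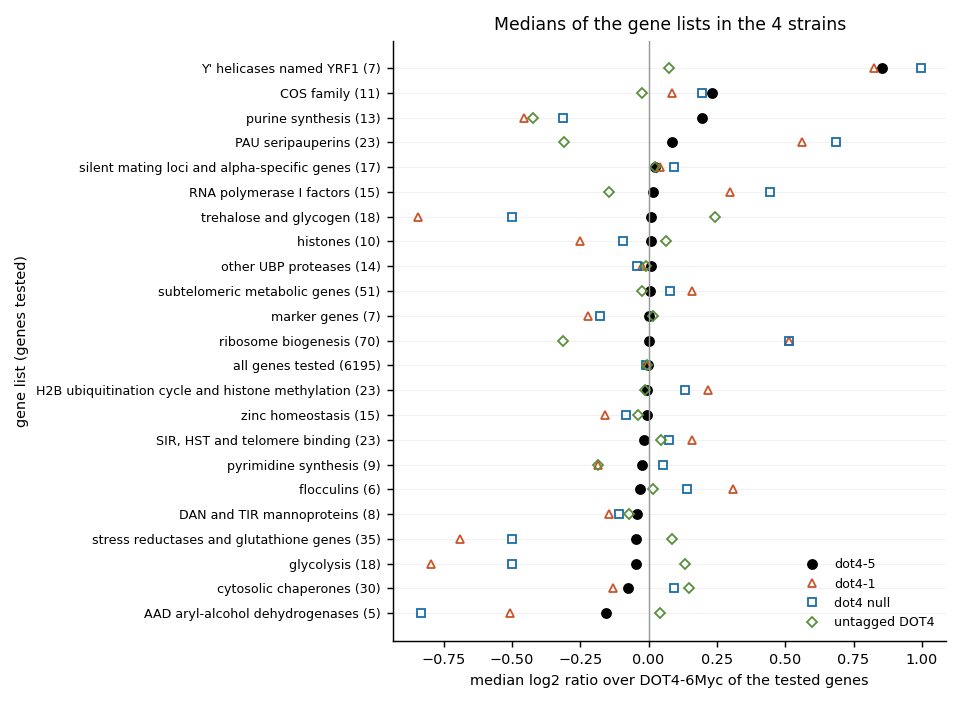
Each row is a gene list with the number of genes tested, and the x axis gives the median log2 ratio over DOT4-6Myc in each of the 4 strains. In dot4-5 (filled circles) the YRF1 genes stand at 0.85 and every other list between -0.16 and 0.23, while the lists of the other strains spread further from 0.

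Genes of silencing and of the histone H2B ubiquitin cycle were not called in dot4-5, which at 1.03% called over all genes says little about lists of this size. Of 23 genes of the SIR, HST and telomere-binding list, 0 were called, and the median was -0.015. SIR2, the histone deacetylase of silent chromatin, was at -0.13, -0.03 and -0.11, and SIR3, which binds nucleosomes there, at 0.04, -0.10 and -0.08. REB1, a DNA-binding factor, had the largest size at -0.15 (adjusted p = 0.538). Of 23 genes of the H2B ubiquitin cycle and histone methylation, 0 were called and UBP10 itself had the largest size. BRE1, the ubiquitin ligase of H2B, was at -0.01 in dot4-5, and 0.55 in dot4-1. DOT1, the methylase of histone H3, was at -0.01 in dot4-5 and 0.47 in dot4-1. UBP8, the other H2B ubiquitin protease, was at 0.02. Of 14 other UBP proteases, 10 histone genes and 17 genes of the mating loci and mating type, 0 were called. HMRA1, at the silent locus HMR, was at 0.04 in dot4-5 and 0.35 in the null strain (adjusted p = 0.000573 for the difference). Of the 17 genes of that list, 4 were lower in dot4-5 than in the null strain and 0 higher. Of all genes tested, 23.3% were lower and 24.2% higher, so the share of lower genes is near that of all genes.

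The dye order shifted some values in opposite directions, and these shifts cancel in the mean of both orders. On the 3 arrays that name dot4-5 first, the YRF1 genes averaged 0.71 to 0.75, and on the 3 that name DOT4-6Myc first, 0.96 to 1.02. Glycolysis and histone genes parted by more. CDC19, the pyruvate kinase gene, was between -1.09 and -0.63 on the first 3 arrays and between 0.50 and 0.67 on the others. HHT2, a histone H3 gene, was between -0.56 and -0.28 on the first and between 0.33 and 0.36 on the others. The set means of 18 glycolysis genes had a median of -0.047, and 0 were called in dot4-5. Of these, 18 were higher than in dot4-1 and 16 higher than in the null strain. Of all genes tested, 31.4% and 24.2% were higher. With only the arrays that name dot4-5 first, 13 glycolysis genes were called lower, and with only the others 12 were called higher. With scaled arrays of both orders, 2 glycolysis genes were called lower. CDC19 was then at -0.25 (adjusted p = 0.0388).

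**Figure D5:**
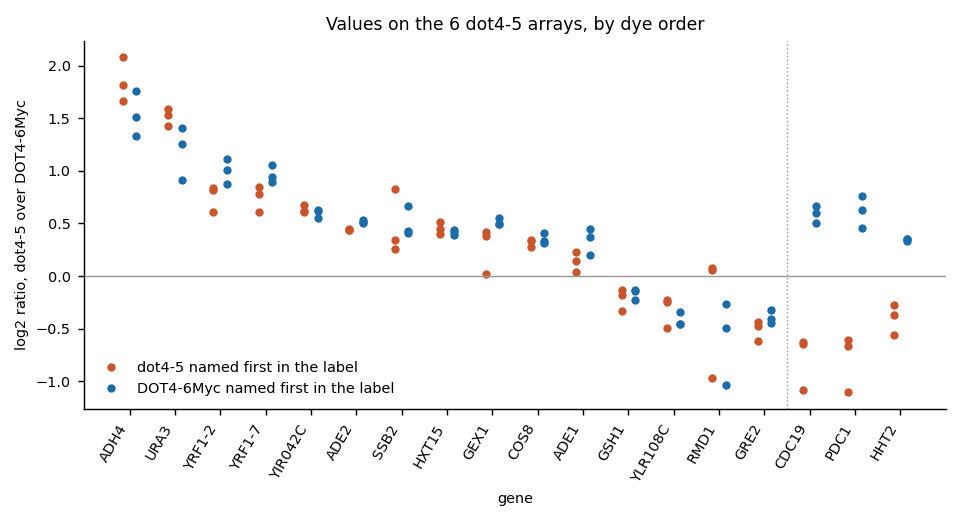
The y axis gives the log2 ratio of dot4-5 over DOT4-6Myc on each of the 6 arrays, coloured by which strain the label names first. The dotted line parts called genes on the left from CDC19, PDC1 and HHT2, which were not called. For those 3 genes the 2 dye orders lie on opposite sides of 0, while the called genes except RMD1 keep 1 sign on all 6 arrays.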

How the data were processed

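Two-colour arrays measured total RNA of 4 yeast strains against DOT4-6Myc, and the deposited table gives 1 log2 ratio per array for 6205 open reading frames. Array type, scanner and normalization by the authors are not stated in the labels, and 83 of 148920 cells were empty. The log2 scale was inferred from the values. The median of an array was subtracted from its values, ratios were turned to strain over DOT4-6Myc, and the 2 dye orders of a set were averaged. A linear model of the 12 averages (lmFit and eBayes of limma 3.58.1, R 4.3.3) had 1 mean per strain and 8 residual degrees of freedom. Genes needed at least 2 of 3 sets in every strain, which left 6195. All p-values are two-sided and were adjusted by the Benjamini-Hochberg method within each of 4 comparisons, with a threshold of 0.05. Differences between strains are contrasts in that fit. No 2 arrays held identical values.

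Of the IDs, 5705 matched the RefSeq table. The other 500 keep their systematic names, whose numbers run outward from the centromere and placed them by rank. No coordinates are given, because the build behind the table is not named. The fit was checked on simulated data with known changes. Of 200 genes shifted by 0.25 in dot4-5, 77.5% were recovered, and 7.19% of the calls were false. With a shift of 0.5 these were 98% and 4.39%. The check gave each gene the same spread in all 4 strains. In the data the median SD over sets was 0.044 in dot4-5 and 0.104 in the null strain. The genes and 22 lists were chosen with earlier results of these data known. The genes named are UBP10, the YRF1 and marker genes, the 10 largest rises and falls with 1 sign in all sets, up to 10 called genes away from the ends, up to 4 genes per list, the called genes that differ most from dot4 null and dot4-1, and neighbours or near copies of these. Genes outside this rule, mostly further called genes and list members, were named after their values were seen. The alternatives were no centring, scaling to a common spread, a fit of only the strains compared, each dye order alone, 24 separate arrays with a dye term, a replicate block, complete genes, robust eBayes and leaving out each set. Python 3.11.15 and matplotlib 3.10.9 made the plots.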

Additional observations from a re-analysis of the deposited data

Results flagged for a closer look

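On 12 of the 153 genes examined, 1 of the 6 dot4-5 arrays stood far from the other arrays. Chance flags about 1 in 20 such groups, but these genes were chosen and some may share signal. That rate may therefore not hold for them. Among called genes these were YHL049C (0.451, the others 0.698 to 0.752), YPR203W (0.323, the others 0.641 to 0.807) and GEX1 (0.016, the others 0.379 to 0.555). Among genes not called, the odd array read -1.38 for MATALPHA2, 0.893 for UBP9, 0.672 for UTP8, -0.527 for AAD10, -0.27 for DAN4, -0.232 for AAD4, -0.179 for ZPS1, -0.137 for UBP12 and 0.106 for GLK1. The other arrays of these genes ran from -0.152 to 0.118 for MATALPHA2 and from -0.206 to 0.113 for UBP9.

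For some genes called in dot4-5 the mean in another mutant was on the other side of 0, and the test of the difference passed. GEX1, whose means in dot4-1 and the null strain were near 0 with sets of both signs, was higher in dot4-5 than in dot4-1 by 0.42 and than in the null strain by 0.40, and ADE1 by 0.60 and 0.55. The difference of YGR139W from the null strain was -0.46. For RMD1 the differences were -0.93 from dot4-1 and -0.67 from the null strain, although 2 of its 6 dot4-5 arrays were above 0.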

How the results depend on the processing

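The count of 64 genes called in dot4-5 stayed within 1.5 times under no centring, complete genes, robust eBayes, separate arrays with a dye term and the replicate block, and left-out sets gave 44 to 51. Scaling the arrays to a common spread gave 353 genes (187 higher, 166 lower), a fit of dot4-5 alone 140 (90 and 50), the arrays naming dot4-5 first 458 (119 and 339) and those naming DOT4-6Myc first 437 (377 and 60). The cause of these changes was not tested. Separate arrays with a dye term gave 13 falls, no centring 4, and left-out sets 1 to 6, so the falls are the least settled count. In the order of the labels the 57 rises are falls and the 7 falls rises. With the set number as a replicate block, 64 genes were called (55 higher and 9 lower), of which 61 were among those of the fit without it. Deviations of same-numbered sets correlated between -0.30 and 0.67 over the 18 pairs. In no pairing of dot4-5 with another strain were all 3 above 0.1. For dot4-1 with the null strain all 3 were above 0.1, at 0.32 to 0.67. Set 1 of dot4-5 gave 0.32 with untagged DOT4 and -0.24 with the null strain. Whether same-numbered sets share a source was not tested. With the block the differences of dot4-5 from the null strain, dot4-1 and untagged DOT4 numbered 3030, 3857 and 873, in place of 2941, 3779 and 812. With scaled arrays the differences from the null strain, dot4-1 and untagged DOT4 numbered 1920, 2246 and 1608, and the fit of dot4-5 and untagged DOT4 only gave 1462. Left-out sets gave 409 to 588 genes for the difference from untagged DOT4.

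With the arrays naming DOT4-6Myc first, CDC19 (0.59), PDC1 (0.61), HHT2 (0.35), SSB1 (0.57) and LYS2 (-0.55) were called with the sign opposite to the mean of both orders. With those naming dot4-5 first, so were HHF2 (-0.16), HHF1 (-0.21) and HHT1 (-0.28). None of these 8 was called in the mean of both orders. Of the other results for single genes, 1652 kept their side of the threshold, 101 passed newly and 74 lost the call, most of them when a set was left out. With 5 or 20 outermost genes per end in place of 10, the ends held 50 or 53 of the rises. Precision is limited by 3 sets and by ratios without intensities.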
